A study of Mus musculus with 6 samples.

Results

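Ccr1, Ccr2, Ly6c2, Itga4, Itgal, Itgam and Itgb7 encode receptors and adhesion proteins with which blood monocytes enter tissue. These 7 genes were taken by symbol from the 38293 genes counted, and all of them were present. They were followed in single CD11b+ cells of the spinal cord of C57BL/6 mice that were 10 weeks old. Mice were either healthy or at the onset (score 1) of experimental autoimmune encephalomyelitis (EAE), an autoimmune model of multiple sclerosis raised with the myelin peptide MOG35-55. Live cells of every group had been stained with 10 uM DCFDA, which becomes fluorescent when it is oxidised, and were gated as high (ROS+) or low (ROS-) in reactive oxygen species. The 3 groups were EAE CD11b+ ROS+, EAE CD11b+ ROS- and Healthy CD11b+ ROS-, with 2 droplet libraries each, and no healthy ROS+ group was analysed here. The labels do not say whether the libraries of a group came from separate or pooled animals, so the p-values may measure technical spread only.

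Recruitment of monocytes begins when chemokines engage G-protein-coupled receptors on the rolling cell, and the signal switches integrins to a state that grips the vessel wall. Ccr2, the receptor for Ccl2 and Ccl7, is needed for release of monocytes from bone marrow and for their entry into the inflamed central nervous system, and Ccr1 answers Ccl3 and Ccl5. Ly6c2 encodes a lipid-anchored surface protein that marks inflammatory monocytes. An integrin is a pair of an alpha and a beta chain. The alpha 4 chain (Itga4) pairs with Itgb1 to bind Vcam1 and fibronectin or with Itgb7 to bind the gut addressin Madcam1, and antibodies against alpha 4 are used to treat multiple sclerosis. The alpha L (Itgal) and alpha M (Itgam) chains both pair with Itgb2 and bind Icam1. Itgam is CD11b itself, so its protein was the criterion of the sort.

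In the GRCm38 build, Ccr1 (ENSMUSG00000025804, chromosome 9, 123962124 to 123968692, minus strand) and Ccr2 (ENSMUSG00000049103, chromosome 9, 124101950 to 124113557, plus strand) lie 133 kb apart, with 2 exons in the longest transcript of each. Ly6c2 (ENSMUSG00000022584) has 2 exons at chromosome 15, 75108158 to 75111970, minus strand, 59.3 kb from its near copy Ly6c1. Itga4 (ENSMUSG00000027009) spans chromosome 2, 79255426 to 79333123, plus strand, in 28 exons, and overlaps Cerkl on the other strand. Itgal (ENSMUSG00000030830, chromosome 7, 127296260 to 127335138, plus strand, 31 exons) and Itgam (ENSMUSG00000030786, chromosome 7, 128062640 to 128118491, plus strand, 30 exons) are separated by 728 kb. The annotation places a further gene model, Gm49368, over Itgam on the same strand, and the files list no such row. Itgb7 (ENSMUSG00000001281) lies at chromosome 15, 102215995 to 102231944, minus strand, with 15 exons.

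The 250 bases before the start site are shown for the 4 genes whose window held a match to a short motif of a myeloid factor. RefSeq (build GRCm38.p6) gave a promoter entry for 6 of the 7 genes, Itgal being the other. Both strands were searched for GAGGAAG, the core bound by PU.1, for TGTGGT, the core bound by RUNX factors, and for GAAANNGAAA, an interferon-response element, and matches are in capitals. The windows are chr9:123968693-123968942 (minus strand) for Ccr1, chr15:75111972-75112221 (minus strand) for Ly6c2, chr2:79255176-79255425 (plus strand) for Itga4 and chr7:128062390-128062639 (plus strand) for Itgam, each written 5′ to 3′ along its gene.
Ccr1: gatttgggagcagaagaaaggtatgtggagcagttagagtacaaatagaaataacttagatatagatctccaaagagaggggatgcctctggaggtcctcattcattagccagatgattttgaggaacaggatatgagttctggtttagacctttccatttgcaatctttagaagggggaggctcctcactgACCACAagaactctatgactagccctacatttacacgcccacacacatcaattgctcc
Ly6c2: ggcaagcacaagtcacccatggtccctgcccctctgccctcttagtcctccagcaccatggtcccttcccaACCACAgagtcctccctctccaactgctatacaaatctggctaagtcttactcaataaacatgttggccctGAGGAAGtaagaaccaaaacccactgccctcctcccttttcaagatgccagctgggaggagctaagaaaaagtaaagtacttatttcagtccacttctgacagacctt
Itga4: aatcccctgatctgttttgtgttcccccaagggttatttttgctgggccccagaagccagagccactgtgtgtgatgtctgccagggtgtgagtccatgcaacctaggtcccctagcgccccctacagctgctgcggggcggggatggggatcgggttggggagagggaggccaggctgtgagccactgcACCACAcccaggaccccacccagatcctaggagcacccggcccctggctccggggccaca
Itgam: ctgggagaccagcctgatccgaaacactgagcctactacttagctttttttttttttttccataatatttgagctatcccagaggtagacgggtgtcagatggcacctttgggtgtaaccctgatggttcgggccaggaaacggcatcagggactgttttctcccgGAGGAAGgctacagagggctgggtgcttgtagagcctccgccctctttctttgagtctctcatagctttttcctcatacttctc
The RUNX-like core lay on the opposite strand of its gene at -58 in Ccr1, -60 in Itga4 and -179 in Ly6c2. A PU.1-like core lay on the gene's own strand at -108 in Ly6c2 and at -84 in Itgam. Among 27025 promoter windows of the same length, 14.18% held the RUNX-like core, 10.39% the PU.1-like core and 3.038% the interferon-response element. No core was found in the windows of Ccr2 and Itgb7, and no interferon-response element in any of the 6. The Ccr2 window, chr9:124101933-124102182, lies mostly inside the gene span given above, which starts at 124101950. The bases before that span were therefore largely not searched. A match describes letters, not a bound site.

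The files held 9079 barcodes, of which 9078 passed the filter on genes detected and mitochondrial share. Library totals were 11909166 to 23407825 UMIs in the 4 EAE libraries and 4431954 and 915197 in the healthy ones, the second of which had only 202 barcodes. Any pair of libraries shared at most 7 barcodes. Counts come from transcript 3′ ends, so levels are compared between cells for a gene and never between genes. A level is a counts-per-million value (CPM), the gene's share of all UMIs of the cells summed.

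Cells were classed by marker genes, none of which is among the 7. Microglia, the resident macrophages of the parenchyma, numbered 1752 and 196 in the healthy libraries, 509 and 244 at the EAE ROS- gate and 29 and 22 at the ROS+ gate. Monocyte-derived cells, marked by Plac8, Vcan, F13a1 and Lyz2 among others, numbered 728 and 1044 in the EAE ROS- libraries, or 45.1% (95% interval by the exact Clopper-Pearson method, 42.7 to 47.6) and 68.3% (65.9 to 70.6). The EAE ROS+ libraries had 1656 (94.9%, 93.8 to 95.9) and 2163 (96.9%, 96.1 to 97.5). None was found in healthy libraries, where a count of 0 allows up to 0.210% and 1.81% of cells. These shares are set in part by the ROS gate. In EAE ROS- there were also 35 and 54 dendritic cells and 25 and 20 T or NK (T/NK) cells. Dendritic cells held 13 and 12 of the 13 dendritic markers, but also summed monocyte markers at 13096 and 13766 CPM, against 21313 and 24256 in monocyte-derived cells. The T/NK cells held monocyte markers at 6558 and 8268. A further 331 cells with microglial and monocyte markers together, which can be doublets, and 241 unassigned cells stand outside the classes.

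Ccr2 was found mainly in monocyte-derived cells, which held 79.96% of its UMIs in EAE ROS- and 97.8% in EAE ROS+. Its level in these cells was 308 and 234 CPM in the EAE ROS- libraries and 258 and 430 in the EAE ROS+ libraries. Microglia of the same libraries had 16.7 and 11.4 at the ROS- gate and 16.7 and 14.5 at the ROS+ gate. Healthy microglia had 3.16 in replicate 1, from 14 UMIs, and none in replicate 2, where 0 UMIs allow up to 3.56. Every monocyte-derived sum was thus above every other class sum of at least 20 cells, and every EAE microglial sum was above both healthy ones. In EAE ROS-, Ccr2 was 4.34 ± 0.23 (log2, SE) higher in monocyte-derived cells than in microglia (edgeR quasi-likelihood test with Benjamini-Hochberg adjustment, adjusted p = 9.33e-12). Of the genes tested, 15.7% were called higher and 21% lower in that comparison, and of the 7 genes 5 were higher and 1 lower. Dendritic cells, with 78.4 and 44.8 CPM, were below monocyte-derived cells (log2 fold change -2.14 ± 0.26, adjusted p = 2.96e-06). T/NK cells, with 126 and 78.1, were also below (-1.65 ± 0.27, adjusted p = 0.000145), and the dendritic and T/NK values overlapped.

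Ccr1 was likewise highest in monocyte-derived cells. They had 175 and 275 CPM in EAE ROS- and 168 and 337 in the ROS+ libraries, so replicate 2 was the higher one in both gates. Dendritic cells had 74.3 and 68.8, T/NK cells 46.5 and 78.1, ROS- microglia of EAE 24.3 and 25.8 and ROS+ microglia 36.6 and 21.7. Healthy microglia had 15.4 and 28.5, a range that contains both EAE ROS- values. Ccr1 was 3.18 ± 0.22 higher on the log2 scale in monocyte-derived cells than in microglia (adjusted p = 1.63e-10), and lower than in monocyte-derived cells in dendritic cells (-1.63 ± 0.27, adjusted p = 0.000155) and in T/NK cells (-2.07 ± 0.33, adjusted p = 8.60e-05). Without EAE ROS- replicate 1 the Ccr1 differences from microglia and from dendritic cells are 3.82 and -2.25, as values with no test. Unlike Ccr2, Ccr1 had UMIs in both healthy libraries, 68 and 24 in microglia.

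Ly6c2 had 72299 UMIs in all and the other genes 3688 to 22943, counts that do not rank the levels of the genes. Monocyte-derived cells held 935 and 1370 CPM at the EAE ROS- gate and 1237 and 1563 at the ROS+ gate. Dendritic cells had 206 and 236 and T/NK cells 206 and 436, which overlap. Of the T/NK UMIs 15 of 31 in replicate 1 and 38 of 67 in replicate 2 were in 1 cell. EAE microglia had 70.4 and 99.6 in ROS- and 149.9 and 188 in ROS+, whereas healthy microglia had 1.81 and 3.56, from 8 and 3 UMIs. Ly6c2 was 3.84 ± 0.24 higher in monocyte-derived cells than in microglia on the log2 scale (adjusted p = 3.07e-11), and lower in dendritic (-2.34 ± 0.24, adjusted p = 2.21e-07) and T/NK cells (-2.10 ± 0.25, adjusted p = 1.55e-06) than in monocyte-derived cells. Ly6c1, the neighbouring copy expressed in endothelial cells, took 3.9 to 8.302% of the UMIs of the pair in monocyte-derived cells. In healthy replicate 2 the order was reversed: its 6 endothelial cells held 84 Ly6c1 and 19 Ly6c2 UMIs, which left 3 of the library's 22 Ly6c2 UMIs to microglia. Ly6c1 was itself a marker of the endothelial class, so its excess in those cells is in part set by the class rule. Of 441 windows of 60 bases in the last 500 bases of the Ly6c2 transcript, 14.74% also occur in Ly6c1, so reads of the pair can be assigned to the wrong copy.

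Itga4 differed from the chemokine receptors in that dendritic cells had the highest level. They held 305 and 236 CPM, from 74 and 79 UMIs, against 94.1 and 68.5 in the monocyte-derived cells of the same EAE ROS- libraries and 86.3 and 89.0 in those of EAE ROS+. The difference of dendritic from monocyte-derived cells was 1.77 ± 0.21 on the log2 scale (adjusted p = 1.68e-06). Itga4 was the only one of the 7 genes called higher in dendritic cells, where 7.02% of all genes tested were called higher and 5.78% lower, and 5 of the 7 genes were called lower. T/NK cells, with 119 and 78.1, overlapped monocyte-derived cells (0.05 ± 0.30, adjusted p = 0.946). Healthy microglia had 1.58 and 0, against 12.9 and 6.84 at the EAE ROS- gate and 13.3 and 7.23 at the ROS+ gate. Itga4 was 3.04 ± 0.24 higher in monocyte-derived cells than in microglia (log2, adjusted p = 8.61e-10), and this was 3.70 without EAE ROS- replicate 1, with no test.

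Itgb7, a partner chain of alpha 4, did not have the dendritic excess of Itga4. Monocyte-derived cells had 108 and 74.8 CPM at the EAE ROS- gate and 75.7 and 85.9 at the ROS+ gate, and dendritic cells had 70.2 and 117, one value on each side. The fitted difference was 0.15 ± 0.29 (log2, adjusted p = 0.819). T/NK cells had the highest values, 186 and 149.7, but the difference from monocyte-derived cells did not pass the test (0.66 ± 0.30, adjusted p = 0.161). Healthy microglia had 0.452 and 0, against 11.4 and 6.08 at the EAE ROS- gate and 6.66 and 14.5 at the ROS+ gate, the last from 2 UMIs each. Itgb7 was 3.33 ± 0.28 higher in monocyte-derived cells than in microglia (log2, adjusted p = 1.75e-09), or 3.99 without EAE ROS- replicate 1, with no test. Itgb1, the other partner of alpha 4, gave 0.18 ± 0.19 between monocyte-derived cells and microglia (log2, adjusted p = 0.490) and 0.54 ± 0.22 between dendritic and monocyte-derived cells (adjusted p = 0.116).

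Itgal had similar levels in the microglia of EAE and in monocyte-derived cells. EAE ROS- microglia had 38.8 and 46.4 CPM, from 153 and 61 UMIs, and monocyte-derived cells of the same libraries had 42.2 and 47.7. EAE ROS+ microglia had 49.96 and 79.5, from 15 and 11 UMIs, and their monocyte-derived cells 55.9 and 64.6. The 2 classes overlapped in both gates in CPM. Over the TMM-scaled totals of the fit, EAE ROS- monocyte-derived cells, at 45.0 and 51.3, lay above microglia, at 40.9 and 44.2, and the fitted difference of 0.18 ± 0.21 did not pass the test (log2, adjusted p = 0.519). T/NK cells had the highest level, 179 and 130.2, which was above monocyte-derived cells (1.55 ± 0.29, adjusted p = 0.000541), though 0.82 without EAE ROS- replicate 1 as a value with no test. In T/NK against monocyte-derived cells 6.12% of genes were called higher and 8% lower, and of the 7 genes Itgal was the 1 called higher and Ccr1, Ccr2 and Ly6c2 the 3 called lower. Dendritic cells had the lowest EAE level, 12.4 and 20.9, from 3 and 7 UMIs (-1.35 ± 0.43 against monocyte-derived cells, adjusted p = 0.04002), and DESeq2 did not call this difference (-1.33, adjusted p = 0.0966).

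Itgam, whose protein defined the sort, was higher in microglia than in monocyte-derived cells of the same library in 4 of 4 EAE libraries. Healthy microglia had 492 and 698 CPM, ROS- microglia of EAE 415 and 599.7 and ROS+ microglia 313 and 412, and replicate 2 was the higher one in each group. Monocyte-derived cells had 205 and 297 at the ROS- gate and 265 and 317 at the ROS+ gate. In EAE ROS- the level was lower in monocyte-derived cells than in microglia of both libraries (-0.93 ± 0.25, adjusted p = 0.00512), a call that DESeq2 did not make (-0.92, adjusted p = 0.161), nor the fit without the library block (-0.90, adjusted p = 0.109). Dendritic cells were lower still, 49.5 and 77.7 (-1.97 ± 0.35 against monocyte-derived cells, adjusted p = 0.000293). T/NK cells had 53.1 and 326, from 8 and 50 UMIs, and 38 of the 50 were in 1 cell. The fitted difference from monocyte-derived cells was -0.73 ± 0.33 (adjusted p = 0.155), and it was called with a stricter class rule (-2.57, adjusted p = 4.8e-05), which kept 1 T/NK library. Cells with 0 Itgam UMIs had still passed a gate on the protein.

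**Figure D1:**
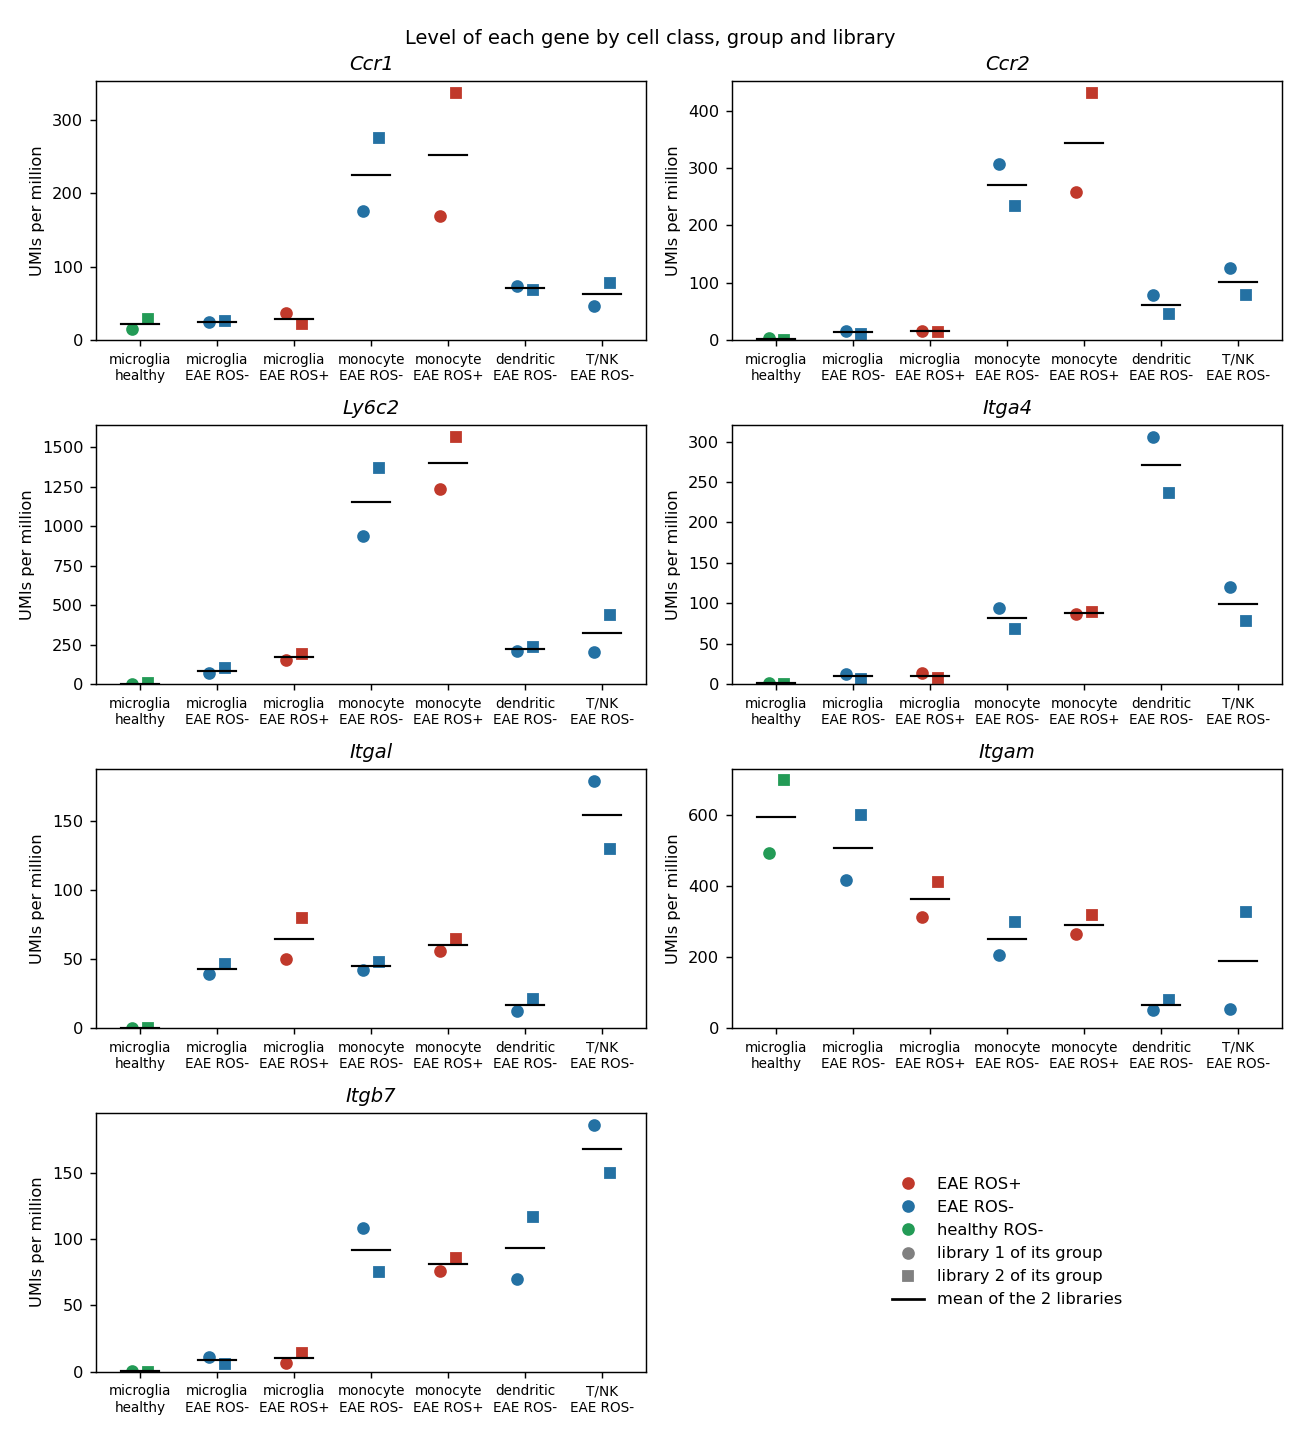
CPM of each gene by cell class, group and library (vertical axes start at 0 and differ between genes; lines, mean of 2 libraries). Ccr1, Ccr2 and Ly6c2 are highest in monocyte-derived cells, Itga4 in dendritic cells and Itgal in T/NK cells. Itgb7 in T/NK cells did not pass the test against monocyte-derived cells, Itgam in healthy and EAE ROS- microglia overlaps, and Itgal in EAE microglia lies beside its level in monocyte-derived cells.

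Set as a percentage of the monocyte-derived level in the same EAE ROS- library, microglia had 5.43 and 4.86% for Ccr2, 7.53 and 7.27% for Ly6c2, 10.6 and 8.13% for Itgb7, 13.7 and 9.99% for Itga4 and 13.9 and 9.41% for Ccr1. The 16 monocyte marker genes found in the files had a median of 9.08 and 7.97% on this measure, with a range of 5.38 to 25.6% in replicate 1 and 4.78 to 37.5% in replicate 2. The percentages of these 5 genes therefore fell in the range of genes that define the other class, and the part of RNA from monocyte-derived cells in them was not tested. Itgal, at 91.8 and 97.3%, and Itgam, at 202 and 202%, lay above the range in both libraries.

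**Figure D2:**
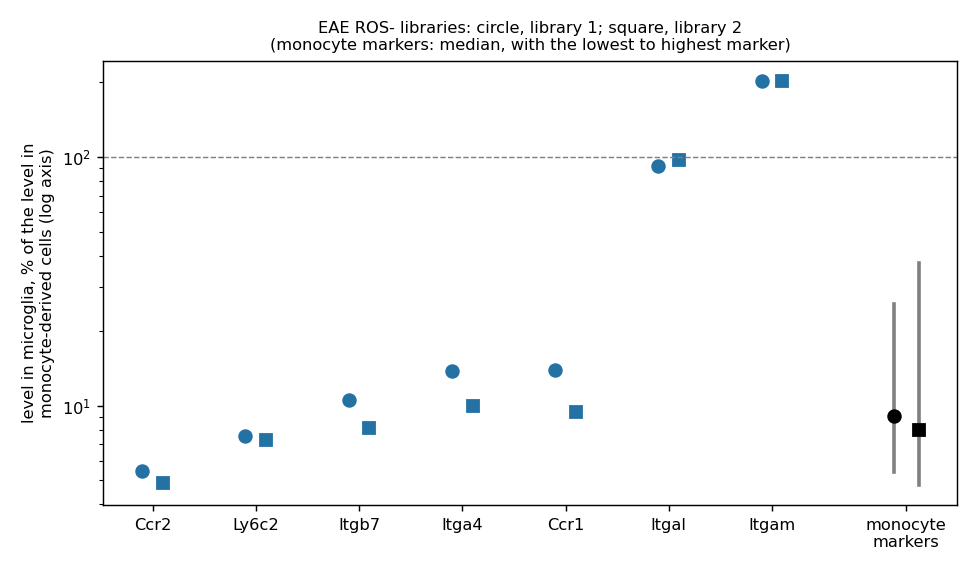
Level in EAE ROS- microglia as a percentage of the level in monocyte-derived cells of the same library (log axis; dashed line, 100%; grey bars, lowest to highest of 16 monocyte markers). Itgal sits at 91.8 and 97.3% and Itgam at 202%, above the marker range, and the other 5 genes sit at 4.86 to 13.9%. The marker range is in part set by the class rule.

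Within microglia, 5 of the 7 genes rose from healthy to EAE at the same ROS- gate. The summed monocyte markers moved with them, from 572 and 469.9 CPM in healthy microglia to 2491 and 2185 in EAE, and their part in the rise was not tested. The rise was 7.55 ± 0.58 log2 units for Itgal (adjusted p = 8.29e-09), 5.46 ± 0.38 for Ly6c2 (adjusted p = 2.98e-09), 4.64 ± 0.85 for Itgb7 (adjusted p = 0.000381), 3.23 ± 0.69 for Itga4 (adjusted p = 0.00153) and 2.76 ± 0.57 for Ccr2 (adjusted p = 0.00115). Of all genes tested 15.9% were called higher and 12.3% lower. Healthy microglia had 1 Itgal UMI and 2 Itgb7 UMIs in all. The ratio of summed counts was 214 for Itgal (exact 95% interval 38.1 to 8504), 26.5 for Itgb7 (6.99 to 225), 37.2 for Ly6c2 (20.6 to 75.2), 8.58 for Itga4 (3.92 to 22.3) and 5.79 for Ccr2 (3.26 to 11.1), intervals that cover counting error only.

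The Ccr2 and Itga4 calls in microglia rested on EAE ROS- replicate 1: without it Ccr2 was 2.45 (adjusted p = 0.138) and Itga4 2.61 (adjusted p = 0.307). Itgb7, with 8 UMIs in replicate 2, was not tested without replicate 1, so that Itgal and Ly6c2 were the 2 genes called. Without healthy replicate 1 the healthy level of 4 genes is 0, and the fitted values of 6.67 to 8.78 for Ccr2, Itga4, Itgal and Itgb7 then depend on the prior count, while Ly6c2 was 4.66. Healthy replicate 2 held 341 CPM of endothelial markers in its microglia, against 13.6 in replicate 1, and the part of this in the healthy levels was not tested. Ccr1 did not pass the test (0.56 ± 0.35, adjusted p = 0.258), but was called without healthy replicate 2 (0.97, adjusted p = 0.0488) and was -0.03 without healthy replicate 1. Itgam gave -0.05 ± 0.25 (adjusted p = 0.906), with values on both sides of 0 among the alternatives tried.

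Itgal was followed further in microglia because its level there lay beside that in monocyte-derived cells. With every cell thinned to 1500 UMIs, 5.41 and 6.77% of EAE ROS- microglia had an Itgal UMI, 6.96 and 11.7% of ROS+ microglia and 0.0611% and 0 of healthy microglia. Thinning left out 208 and 11 healthy cells that were shallower, and no EAE microglia. Unthinned shares were 22.6 and 18.9% at the EAE ROS- gate, at median depths of 6523 and 4720.5 UMIs, and 0.0571% and 0 in healthy libraries, at 2178.5 and 3598. In monocyte-derived cells the thinned share was 5.90 and 7.04% in ROS- and 7.73 and 9.87% in ROS+, beside 5.41 to 11.7% in the microglia.

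EAE ROS- microglia were then divided by their own monocyte-marker score at 20 UMIs per 10000, a division chosen after the values were seen. Itgal was at 35.9 CPM in the 219 cells under that score and 40.6 in the 290 at or over it in replicate 1, and at 50.6 and 42.2 in the 120 and 124 cells of replicate 2. The summed monocyte markers were 1535 and 3097 in the first and 1464 and 2893 in the second. Ccr1 likewise differed little, 24.2 and 24.4 in replicate 1 and 26.1 and 25.6 in replicate 2. Itgam went from 371 to 443 and from 604 to 595.5, and Itgb7 from 9.80 to 12.4 and from 7.67 to 4.52, from as few as 3 UMIs. Ccr2 went from 11.8 to 19.9 and from 9.20 to 13.6, and Itga4 from 7.19 to 16.6 and from 4.60 to 9.05, from as few as 3 UMIs. Ly6c2 went from 56.8 to 79.1 and from 95.1 to 104. Summed T/NK markers in the microglia were 39.5 CPM in EAE ROS- replicate 1 and 8.36 in replicate 2, against 10136 and 4108 in T/NK cells and 17.4 and 26.1 in healthy microglia. Of the 14 T/NK markers 12 were detected in the EAE ROS- microglia of replicate 1 and 5 in those of replicate 2. Trac and Ncr1 had 0 UMIs in both. Cells with at least 3 T/NK markers and at least 10 UMIs of them per 10000 were kept out of microglia. The T/NK sums there are therefore in part set by the class rule, and the part of T/NK RNA in the Itgal values was not tested.

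Over all cells of a library, Ccr1 was called between EAE and healthy beside the 5 genes called within microglia. Between EAE ROS- and healthy, 6 of the 7 were called higher and none lower, where 19.9% of genes were called higher and 14% lower: Ccr1 by 3.48 ± 0.52 log2 units (adjusted p = 0.00117), Ccr2 by 6.58 ± 0.51 (adjusted p = 3.62e-05), Ly6c2 by 6.93 ± 0.84 (adjusted p = 0.000375), and Itga4 by 5.92 ± 0.31, Itgal by 8.44 ± 0.46 and Itgb7 by 7.95 ± 0.42 (adjusted p = 9.71e-06 for each). Healthy libraries held 1 UMI of Itgal and 2 of Itgb7 over all cells, and the ratio of summed counts was 265 for Itgal (exact 95% counting interval 47.5 to 10484) and 181 for Itgb7 (49.9 to 1493). Itgam, at 303 and 346 CPM in EAE ROS- and 491 and 695 in healthy cells, did not pass the test (-0.39 ± 0.25, adjusted p = 0.258). Its groups did not overlap in these CPM values but did over TMM-scaled totals, where EAE ROS- had 318 and 381 against 373 and 543. Over all cells, more monocyte-derived cells and more RNA of a gene per cell cannot be told apart. Ly6c2 in healthy replicate 2, 24.0 CPM against 2.71 in replicate 1, came mainly from its endothelial cells, and the Ly6c2 fold was 8.69 without that library, 5.50 without healthy replicate 1 and 6.33 without EAE ROS- replicate 2, where Ccr1 was 2.83. Without healthy replicate 1, Ccr2, Itgal and Itgb7 have no healthy UMI and no fold is given.

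The ROS gate in EAE was compared first over all cells. Ccr2 was 249.7 and 417 CPM in ROS+ against 161 and 177 in ROS-, Itga4 84.3 and 87.2 against 66.3 and 62.5, Itgal 55.9 and 65.0 against 48.9 and 50.5, and Itgb7 73.3 and 84.3 against 67.4 and 67.8. Ly6c2 was 1197 and 1532 against 513 and 1049. In these 5 genes both ROS+ libraries lay above both ROS- libraries, which held for 21.2% of all genes, and Ccr1 (164 and 329 against 104 and 217) and Itgam (268 and 321 against 303 and 346) overlapped. No member passed the test, with 2.16% of genes called in either direction, 0.125% higher and 2.04% lower in ROS+. Ccr2 came nearest (1.15 ± 0.33, adjusted p = 0.143), followed by Itga4 (0.58 ± 0.19, adjusted p = 0.192). DESeq2 called Ccr2 (1.197, adjusted p = 0.0265), and without the filter on low counts Ccr1 (0.79, adjusted p = 0.0410), Ccr2 (1.17, adjusted p = 0.000290) and Ly6c2 (0.98, adjusted p = 0.00559) were called. Same-numbered EAE libraries deviated together (r = 0.62), but the replicate numbers were not shown to pair them. With the replicate number as a block and only the EAE groups fitted, Ccr1, Ccr2, Ly6c2 and Itga4 were called. In that fit 651 of all genes were called higher and 1188 lower.

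**Figure D3:**
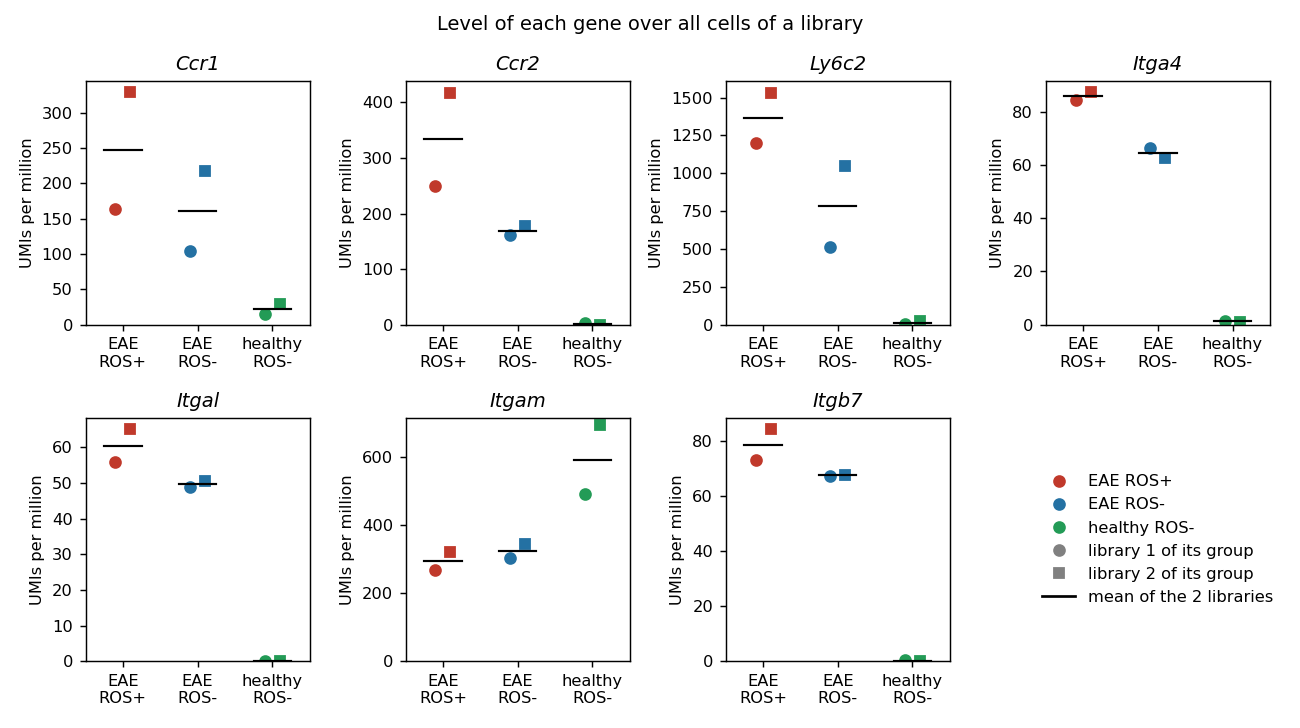
CPM of each gene over all cells of a library (vertical axes start at 0 and differ between genes; lines, mean of 2 libraries). Ccr2, Ly6c2, Itga4, Itgal and Itgb7 lie in the order EAE ROS+, EAE ROS-, healthy with no overlap, and Itgam is highest in the healthy libraries at 491 and 695.

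Within monocyte-derived cells no difference between the gates passed the test for any of the 7 genes. The log2 differences, ROS+ against ROS-, were 0.46 ± 0.18 for Itgal, 0.38 ± 0.27 for Ccr2, 0.32 ± 0.27 for Ly6c2, 0.25 ± 0.24 for Itgam, 0.19 ± 0.35 for Ccr1, 0.15 ± 0.20 for Itga4 and -0.13 ± 0.21 for Itgb7, each with an adjusted p of 0.9997. Of 11896 genes tested 0% were called by edgeR, 470 had an unadjusted p under 0.05, and DESeq2 called 28, none of them among the 7. Itgal was the one gene of the 7 with both ROS+ values, 55.9 and 64.6, above both ROS- values, 42.2 and 47.7. Over TMM-scaled totals, 15.6% of all genes tested had both ROS+ libraries above both ROS- libraries. Ccr2 differed by 1.15 over all cells and by 0.38 within the class, and the difference between these was not tested. The ROS- libraries held 45.1 and 68.3% monocyte-derived cells and the ROS+ libraries 94.9 and 96.9%.

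Within microglia the ROS+ sums come from 29 and 22 cells, with 1 to 94 UMIs for each gene. Ly6c2 was at 149.9 and 188 CPM in ROS+ and at 70.4 and 99.6 in ROS- (0.99 ± 0.28, adjusted p = 0.498). Itgal was at 49.96 and 79.5 in ROS+ and at 38.8 and 46.4 in ROS- (0.54 ± 0.37). Itgam was at 313 and 412 in ROS+ and at 415 and 599.7 in ROS- (-0.50 ± 0.27, adjusted p = 0.836). Both ROS+ values were thus above both ROS- values for Ly6c2 and Itgal and below them for Itgam. Over TMM-scaled totals, 16.1% of all genes tested lay above in this way and 23.9% below. Across all genes 0.0113% were called, a single gene and no member. The summed monocyte markers were also higher in the ROS+ microglia, 3530 and 2877 CPM against 2491 and 2185, and their part in the Ly6c2 values was not tested.

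**Figure D4:**
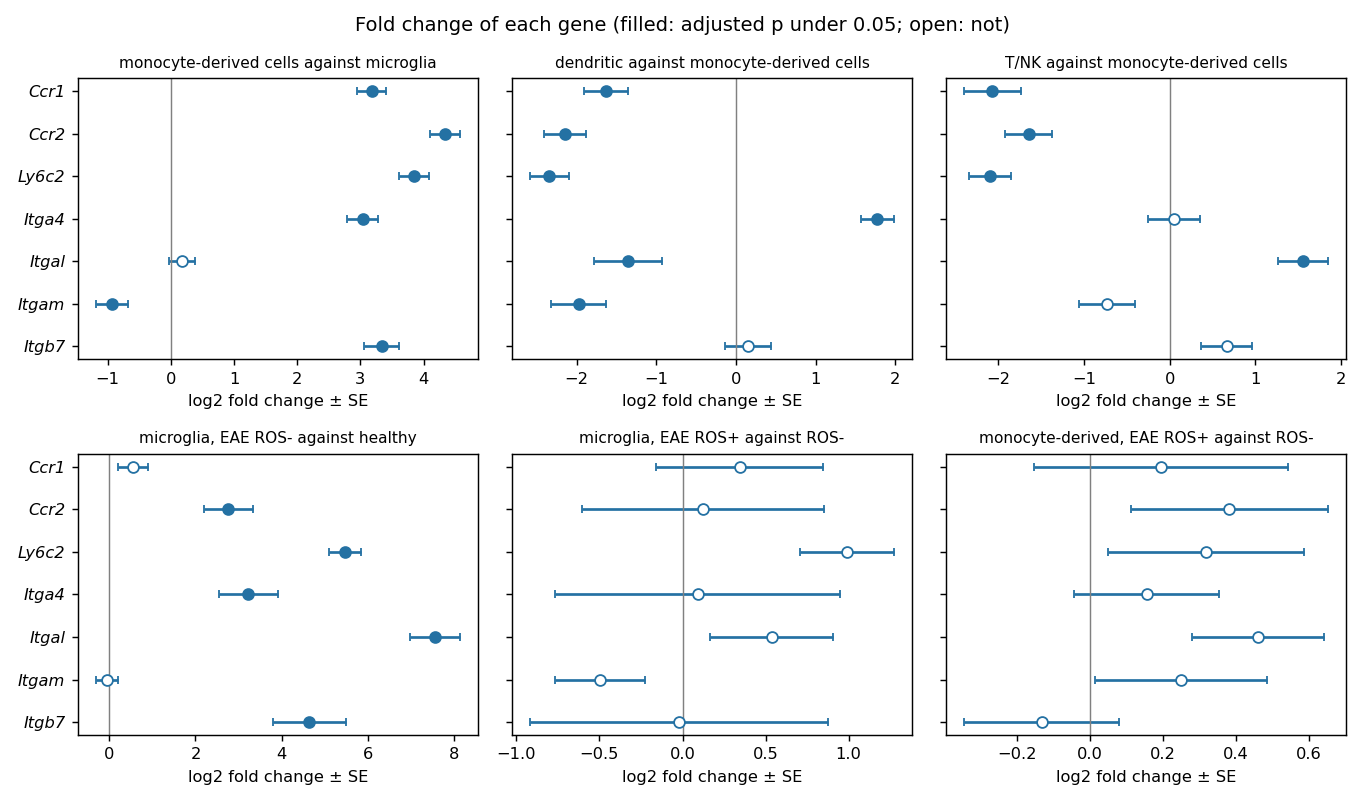
Fitted log2 fold change with its SE for the 7 genes in 6 comparisons (filled points, adjusted p under 0.05; horizontal axes differ). In EAE ROS- 5 genes are higher and Itgam is lower in monocyte-derived cells than in microglia, 5 genes are higher in EAE than in healthy microglia, and no gene is called between the gates within either class.

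Other homing and adhesion genes were taken from a list of 65, grouped as chemokine and chemoattractant receptors, integrin chains, selectins and other adhesion proteins, integrin activators, ligands, and Ly6 proteins. In monocyte-derived cells against microglia 49 were tested, 16 were higher and 18 lower, where 15.7% of all genes tested were called higher and 21% lower. Among those with large changes were Ly6i (4.74 ± 0.35), Emb, an adhesion glycoprotein (4.11 ± 0.24), the integrin activator Rasgrp2 (3.93 ± 0.68), the formyl peptide receptor Fpr2 (3.82 ± 0.32) and, lower, the chemokine Ccl12 (-3.98 ± 0.28). Microglia held 3 UMIs of Rasgrp2, and its ratio of summed counts was 17.7 (exact 95% counting interval 5.95 to 87.0). Ligands were split, with 3 higher and 7 lower of 10 tested: Ccl2 (-3.03, adjusted p = 1.58e-09) and Ccl7 (-2.53, adjusted p = 8.06e-09), ligands of Ccr2, were lower in monocyte-derived cells, while the receptor was higher there. Vcam1 (-2.43, adjusted p = 1.83e-07) and Icam1 (-0.49, adjusted p = 0.0412), which integrins with the alpha 4 and alpha L chains bind, were lower in monocyte-derived cells as well.

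From healthy to EAE microglia 18 of the 44 listed genes tested rose and 10 fell, beside 15.9% and 12.3% of all genes tested. Ly6i (5.79 ± 0.66), Ccl7 (5.40 ± 0.44), Fpr2 (5.28 ± 0.93), Ly6a (5.17 ± 0.37), Emb (4.48 ± 0.66) and the hyaluronan receptor Cd44 (4.25 ± 0.41) changed most. Fpr2 had 1 UMI in healthy microglia, and its ratio of summed counts was 47.1 (exact 95% counting interval 8.05 to 1898). Itgb2, the partner chain of Itgal and Itgam, rose by 1.28 log2 units (adjusted p = 0.00116), from 197 and 175 to 483 and 424 CPM over TMM-scaled totals. Vcam1 rose by 2.29 (adjusted p = 0.000567). Itgb1 (0.05 ± 0.22, adjusted p = 0.895) and Icam1 (-0.14 ± 0.31, adjusted p = 0.781) did not pass the test. The fractalkine receptor Cx3cr1 (-1.21, adjusted p = 0.000962) and the selectin ligand Selplg (-1.65, adjusted p = 3.83e-05) fell.

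In dendritic against monocyte-derived cells 2 of 49 listed genes were higher and 14 lower, beside 7.02% and 5.78% of all genes tested. Itgae, the alpha E chain that pairs with Itgb7, was higher (4.86 ± 0.92), and Ccl6 (-2.25 ± 0.39), Fn1 (-2.22 ± 0.37), Fpr2 (-1.99 ± 0.41) and Itgb5 (-1.78 ± 0.40) were lower, while Fpr1 had 0 UMIs in dendritic cells. In T/NK against monocyte-derived cells 8 of 49 were higher and 16 lower, beside 6.12% and 8% of all genes tested. They were led by the chemokine receptor Cxcr6 (9.78 ± 0.47), Cd226 (6.89 ± 1.06), Itgae (4.89 ± 1.06) and the chemokine receptor Cxcr3 (4.85 ± 0.83), with Itga5 (-3.83 ± 0.87) and Ly6i (-3.43 ± 0.40) lower. Several of these rested on few UMIs. Monocyte-derived cells held 4 of Cxcr6, 3 of Cd226 and 8 of Itgae, and T/NK cells 7 of Itgae and 1 of Itga5. Dendritic cells held 10 of Itgae. The ratio of summed counts, higher over lower class, was 183 for Cd226 (exact 95% counting interval 49.5 to 1012) and 12.5 for Itga5 (2.23 to 495). Between the gates over all cells 1 of 56 was higher in ROS+, Rasgrp2 (1.48 ± 0.30), and 2 lower, Cxcr6 (-4.37 ± 0.49) and Ccl12 (-2.31 ± 0.33). Of all genes tested 0.125% were called higher and 2.04% lower there. None of 50 was called between the gates in monocyte-derived cells and none of 44 in microglia. Over all cells of EAE ROS- against healthy, 23 of 56 were higher and 12 lower, beside 19.9% and 14% of all genes tested.

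Monocyte-derived cells were also divided by whether a cell, thinned to 3000 UMIs, had a UMI of a gene that marks a macrophage state. These divisions were chosen after values were seen and are a description without a test, given for the libraries in the order EAE ROS- replicates 1 and 2 and EAE ROS+ replicates 1 and 2. Cells with Nos2, the inducible nitric oxide synthase, were 17.2, 34.9, 15.6 and 24.2%. Their Ccr2 level was 0.496, 0.493, 0.668 and 0.571 of that in cells without Nos2 UMIs, and Ly6c2 was 1.30, 1.01, 1.15 and 0.878. In the first library this was 168 against 338 CPM for Ccr2 and 1154 against 888 for Ly6c2. Ccr2 was lower in all 4 libraries, as were 18.5% of the 10307 genes with at least 100 UMIs, and Ly6c2 was higher in 3. Its ratio of 1.01 in EAE ROS- replicate 2 had an exact 95% counting interval of 0.969 to 1.05, and with cells thinned to 1500 UMIs it was 0.908 there (0.866 to 0.951), which left Ly6c2 higher in 2 of 4.

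Cells with Ms4a7, a gene of macrophages, were 32.0, 13.5, 45.4 and 12.9% of monocyte-derived cells. Ccr2 was 0.539, 0.507, 0.590 and 0.518 of the level in the other cells. A reduction of at least 1.5-fold in all 4 libraries was seen in 0.369% of genes, 38 in number, and a lower level of any size in 15.2%. With cells thinned to 1500 UMIs Ccr2 was 0.685 in EAE ROS- replicate 2, which falls short of a 1.5-fold reduction. In the divisions by Nos2 above and by Arg1 and Saa3 below, Ccr2 did not meet the 1.5-fold limit in all 4 libraries. There 0.388, 0.475 and 0.0194% of genes met it. Ccr1 was 0.673, 0.894, 0.800 and 0.704, and Itga4 0.837, 0.957, 0.875 and 0.744, both lower in all 4. Cells with Arg1, the arginase of alternatively activated macrophages, were 52.6, 69.5, 79.3 and 67.6%. In them Ccr2 was 0.783, 0.605, 0.539 and 0.542 and Itga4 0.883, 0.621, 0.733 and 0.630, where 13.9% of genes were lower in all 4 libraries. Itgam went the other way, at 1.40, 1.40, 1.34 and 1.56, as 16.8% of genes did. With cells thinned to 1500 UMIs Ly6c2 was also lower in cells with Arg1 in all 4 libraries (0.927, 0.698, 0.694 and 0.843). No share of all genes was taken at that depth.

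Cells with Saa3, an acute-phase protein gene, had less Ccr2 (0.482, 0.754, 0.658 and 0.823) and more Ly6c2 (1.48, 1.1996, 1.10 and 1.02) in all 4 libraries, where 11.2% of genes were lower and 10.3% higher throughout. Cells with Ifit3, an interferon-induced gene, made up 9.07, 11.2, 7.67 and 18.0%. They had more of both, Ly6c2 at 1.55, 1.63, 1.36 and 1.21 and Ccr2 at 1.10, 1.57, 1.29 and 1.33, and 9.72% of genes were higher in all 4. The interval of the Ccr2 ratio in the first library, 0.949 to 1.27, held 1, and at 1500 UMIs that ratio was 1.004. The Ly6c2 ratio of 1.02 with Saa3 in EAE ROS+ replicate 2 had an interval of 0.988 to 1.04. Cells with Nos2, Arg1, Ms4a7 or Saa3 UMIs had higher median depths than those without in all 4 libraries, with the widest gaps for Arg1 in EAE ROS+ replicate 1 (10191 and 7482) and Ms4a7 in EAE ROS+ replicate 2 (7437 and 5410). Cells with Ifit3 had 7525.5 and 7425.5 in the first library and were shallower in the other 3 (5871 and 6722, 8469 and 9466, 4971 and 5637). The part of depth in these ratios was not tested.

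**Figure D5:**
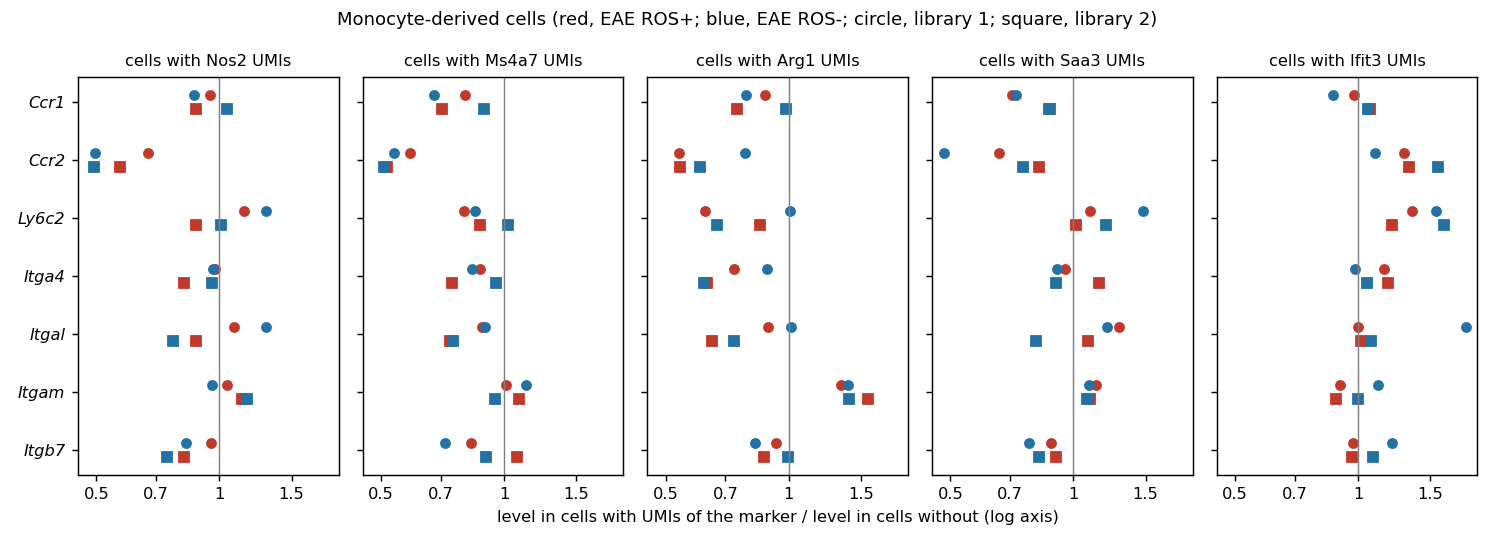
Level of each gene in monocyte-derived cells with UMIs of Nos2, Ms4a7, Arg1, Saa3 or Ifit3 divided by the level in cells without (log axis; vertical line, equal levels; 1 point per EAE library). Ccr2 lies left of the line in all 4 libraries for Nos2, Ms4a7, Arg1 and Saa3 and right of it for Ifit3, and Itgam lies right of it for Arg1 at 1.34 to 1.56.

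Receptors were also compared cell by cell at 3000 UMIs. In cells with a Ccr1 UMI, 54.3 and 41.6% (EAE ROS-) and 55.0 and 61.0% (EAE ROS+) had a Ccr2 UMI, against 41.4 and 35.0% and 38.5 and 56.5% of cells without one. The difference was positive in 4 of 4 libraries, 10.2 ± 5.59 percentage points (SD, n = 4). Ly6c2 was found in 68.2, 78.9, 86.7 and 90.0% of cells with Ccr2 and in 67.0, 74.2, 84.0 and 86.1% of cells without, differences of 1.24 to 4.73 points. The 2 chains of the alpha 4 beta 7 pair, Itga4 and Itgb7, had differences of 8.04 and -1.81 points in ROS- and 6.07 and 1.81 in ROS+, and Itgal with Itgam 8.36, -0.23, 8.23 and -0.25. With cells thinned to 1500 UMIs Itga4 with Itgb7 gave -1.01 and 5.55 points in ROS- and -0.31 and 1.08 in ROS+, so the sign turned in 3 of 4 libraries and replicate 2 became the larger, while Itgal with Itgam gave 8.51, -1.46, 4.55 and -0.65. Counts are sparse, and a UMI not seen in a cell is no sign that the gene is off.

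The genes most like each member were sought over the 14 sums of a class in a library, which share libraries and cell make-up, so the coefficients (Pearson's r of log2 levels among 11542 genes) are descriptions. Ccr2 was closest to Emb (0.971), the glycolytic gene Pgk1 (0.9695) and Gpi1 (0.965), and Ly6c2 to the lectin Clec4d (0.989), Pla2g7 (0.984) and Gapdh (0.982). Ccr1 was closest to Prdx6 (0.965), Smpdl3b (0.959) and Pygl (0.956). Itga4 was closest to Tmsb10 (0.977), Arf5 (0.968) and S100a11 (0.964), and Itgb7 to Mdfic (0.976), Cd97 (0.976) and Pim1 (0.971). Itgal was closest to 1810006K21Rik (0.967), Ybx1 (0.965) and Mrpl33 (0.959), and Itgam to Slc7a7 (0.962), Entpd6 (0.957) and Fam65a (0.953). No gene was on 2 of these lists.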

How the data were processed

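RNA of CD11b+ cells was counted in 6 libraries (10x Chromium 3′ v2, per the labels' protocols). The authors deposited whole-number UMI counts per gene and barcode; Cell Ranger 2.0.1, Seurat 3, R 3.4.2 and mm10 are named in the submitters' processing notes, without roles. The members, lists and alternatives were chosen with earlier results of these data known. Barcodes needed 200 genes and no more than 10% mitochondrial UMIs. Classes rest on marker UMIs per 10000, with limits set after the marker distributions were seen: microglia had at least 40 microglial and under 60 monocyte UMIs, monocyte-derived cells at least 80 monocyte and under 40 microglial, with at most 1 dendritic and 1 T/NK marker, and dendritic and T/NK cells at least 3 markers and 10 UMIs of their own. Dendritic and T/NK cells also needed under 40 microglial UMIs, and T/NK cells under 120 monocyte UMIs. Near the limits of microglia and of monocyte-derived cells lay 30 and 142 cells. No doublet caller was run; cells with both marker sets were left out. Counts of at least 20 cells were summed per library and class and fitted with edgeR 4.0.16 in R 4.3.3 (TMM, filterByExpr minimum 10, quasi-likelihood F test, Benjamini-Hochberg over all genes tested, adjusted p under 0.05, with SE from the F statistic; library as a block between classes). TMM factors were 0.730 to 0.860 for monocyte-derived sums and 0.968 to 1.16 for EAE microglia, so fitted folds differ from ratios of plain levels. The scripts were tested on simulated data. DESeq2 1.42.0, no low-count filter, other designs, a stricter class rule and leaving out each library were alternatives. Named besides the members were up to 6 listed homing genes per comparison with the largest change among those called and not overlapping, and 3 genes most like each member; Ccl2, Ccl7, Icam1, Vcam1, Itgb1, Itgb2, Cx3cr1 and Selplg were named after their values were seen, as partners or known microglial genes. Another gene that this rule picks is not reported here. Ackr3 and Jaml of the list were not matched in the files. Figures used matplotlib 3.10.9.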

Additional observations from a re-analysis of the deposited data

How the results depend on the processing

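Of 500 recomputed fold changes of the 7 genes, 437 were the same, 13 gained a call, 6 lost it, 23 changed sign and 21 moved without a test. The same meant that direction and side of the threshold were kept. For a value with no test it meant a value within the SE of the main one. Untested values of uncalled genes that changed sign are not among the 23. The replicate numbers were not shown to pair the libraries, since there are 2 pairs. Same-numbered EAE libraries deviated together over all cells (r = 0.62) and in monocyte-derived cells (r = 0.59), less so in microglia (r = 0.20). Healthy ones did not with EAE ROS- over all cells (r = -0.056). With the replicate block, members called between gates over all cells went from 0 to 1, Ccr1 (0.80, adjusted p = 0.0468), or with only the 2 groups to 4, Ccr1, Ccr2, Ly6c2 and Itga4, and all genes called from 295 to 596 (1839); in microglia genes went from 1 to 2 (119, with 1 member, Ly6c2, 1.03, adjusted p = 0.0105); in monocyte-derived cells from 0 to 129. DESeq2 called 1 member over all cells, 3 genes in microglia, 28 in monocyte-derived cells, and 1978 rather than 3052 between monocyte-derived cells and microglia. It moved the higher share of calls from 54.8 to 66.4% in dendritic and from 43.3 to 55.6% in T/NK cells. Without the low-count filter 3 members and 1006 genes were called over all cells, 25 in microglia and 131 in monocyte-derived cells; with only the 2 groups 153 and 0 over all cells and in microglia. Sign changes were of uncalled values: Itgam in microglia of EAE against healthy, 0.0040 (no filter) and 0.013 (stricter class rule); Itgb7 between gates in microglia, 0.087 (DESeq2); Itgb7 in dendritic cells, -0.13 (no filter) and -0.22 (stricter); Itga4 in T/NK cells, -0.30 and -0.25. The cause was not tested. Leaving out 1 library gave 123 (without EAE ROS+ replicate 2) to 632 (without EAE ROS- replicate 2) genes between gates over all cells, 0 to 24 in microglia, 0 to 3 in monocyte-derived cells, 2364 (without healthy replicate 1) to 4295 for EAE against healthy, and 1549 (without EAE ROS- replicate 2) to 2727 in microglia, where members called ran from 2 to 6. Signs then changed between gates for Itgam over all cells (-0.088 to 0.17), Ccr1 (-0.47 to 0.60), Ccr2 (-0.28 to 0.54), Itga4 (-0.80 to 0.76) and Itgb7 (-0.43 to 0.37) in microglia, and Ccr1 (-0.35 to 0.60), Itga4 (-0.053 to 0.38), Itgam (-0.0035 to 0.55) and Itgb7 (-0.37 to 0.14) in monocyte-derived cells; and from healthy to EAE microglia for Ccr1 (-0.027 to 0.97) and Itgam (-0.36 to 0.29); with no test, also for Itgb7 in dendritic (-0.72 to 0.39) and Itga4 in T/NK cells (-0.44 to 0.031) against monocyte-derived cells. The stricter rule left too few ROS+ microglia for a fit. Healthy replicate 2, with 202 cells, limits every healthy level.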
